A study of Mus musculus with 12 samples.

Results

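The genes described here are those of the MHC class II pathway and their master regulator, namely Ciita, the invariant chain gene Cd74, the chain genes H2-Aa, H2-Ab1 and H2-Eb1, and the peptide exchange genes H2-DMa, H2-DMb1, H2-Oa and H2-Ob. The genes were taken by symbol for their place in the pathway, with earlier results of these data known, and all 9 were found among the 20778 genes of the deposited table and among the 12122 genes that passed the count filter. Their mRNA was followed in 12 libraries of splenic T cells labelled CD8, taken with magnetic beads from C57BL/6 mice and held for 6 h in culture. Naïve cells received no stimulus, αCD3 cells an antibody to the CD3 part of the T cell receptor (1 µg/ml), IFNγ cells the cytokine interferon gamma (70 ng/ml) and LPS cells bacterial lipopolysaccharide (1 µg/ml), with 3 libraries in each of the 4 groups. The dose unit of αCD3 and LPS differs between fields of the labels, and the age of 6 weeks in the labels differs from that in the study's methods, so these are uncertain. The labels do not say whether the 3 libraries of a group came from separate mice or cultures, and the p-values then measure only the spread between these libraries, which may be technical.

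MHC class II molecules present peptides from the endosomal system to CD4 T cells, and are best known from B cells, dendritic cells and macrophages. An alpha and a beta chain (I-A, encoded by H2-Aa and H2-Ab1) are assembled on the invariant chain, the invariant chain is cut down in endosomes, and H2-DM then exchanges its remnant for a peptide, while H2-DO, best known from B cells, holds H2-DM in check. Ciita is a co-activator of class II genes. It binds no DNA itself but docks on a complex of RFX, CREB and NF-Y at their promoters. IFNγ is a classical inducer of Ciita in many cell types, in part through IRF1. How far each member depends on Ciita was not tested. Mouse T cells are generally held to express little or no class II of their own.

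The promoters are shown because 5 of the members share a layout there and their levels moved apart. In the RefSeq windows of GRCm38.p6, which run from 250 bases before to 50 bases after each start, 6 of the 9 members were present (H2-Aa, H2-Eb1, H2-DMa, H2-DMb1, H2-Oa and H2-Ob). A word of the RFX half-site type (AGCAAC or AGTAAC or GGCAAC or GGTAAC) followed after 10 to 35 bases by ATTGG, the reverse complement of the NF-Y word CCAAT, was searched on the sense strand. The words and the distance limits were set with these promoters in view. The pair was found in 5 of the 6 members, with 28 bases between the words in H2-Aa, H2-Oa and H2-DMb1, 27 in H2-Eb1 and 25 in H2-Ob, against 0.524% of all 32851 windows on the sense strand and 1.11% on either strand. Neither of the 2 windows of H2-DMa held the pair. Both words are in capitals below, 5′ to 3′ on the strand of the gene, for the I-A alpha chain, the I-E beta chain and the 2 chains of H2-DO.
H2-Aa (chr17:34287867-34287915, minus strand): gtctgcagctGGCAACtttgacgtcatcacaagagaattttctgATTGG
H2-Eb1 (chr17:34305765-34305812, plus strand): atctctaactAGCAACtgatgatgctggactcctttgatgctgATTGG
H2-Oa (chr17:34092292-34092340, plus strand): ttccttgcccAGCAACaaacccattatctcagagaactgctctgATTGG
H2-Ob (chr17:34238807-34238852, plus strand): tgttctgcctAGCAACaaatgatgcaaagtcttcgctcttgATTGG
The ATTGG word began 48 bases before the start in H2-Aa, 59 in H2-Eb1, 43 in H2-Oa and 57 in H2-Ob. A match of letters is a description and was not tested for binding.

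The libraries held 10.2 M to 27.6 M counts, and levels are given as CPM, estimated counts scaled to a common library size after TMM normalisation. Replicate 1 stood apart from replicates 2 and 3 in every group: the chi-square per degree of freedom between 2 libraries of a group was 20.6 to 55.6 for the 8 pairs with replicate 1 and 4.65 to 5.77 for the 4 pairs without it, so no library was a copy of another. Markers of CD8 T cells were all detected in every library, with sums of 1377 to 1492 CPM over 7 genes in Naïve. Markers of B cells were present at higher sums. The 12 of 14 B cell markers in the table, among them Ms4a1, Cd79a and Pax5, summed to 3561 to 3886 CPM in Naïve, 2472 to 2886 in αCD3, 2844 to 2983 in IFNγ and 2101 to 3121 in LPS, where replicate 1 held the highest sum. The 12 macrophage and monocyte markers summed to 427.5 to 784 CPM in Naïve, 299.4 to 441.2 in αCD3, 343 to 648.2 in IFNγ and 260.8 to 457.2 in LPS, and in each group replicate 1 was the lowest. The 9 dendritic cell markers summed to 74.8 to 127.4, 66.5 to 81.4, 49.6 to 77.6 and 74.2 to 95.2 CPM in the same order, with Cd209a at 0 in 1 of the 3 αCD3 libraries and in all 3 LPS libraries, and no other marker of these lists was at 0 in any library. CD8 T cell mRNA was thus measured together with B cell and myeloid mRNA, and in bulk libraries fewer cells of a type and less RNA per cell cannot be told apart.

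**Figure D1:**
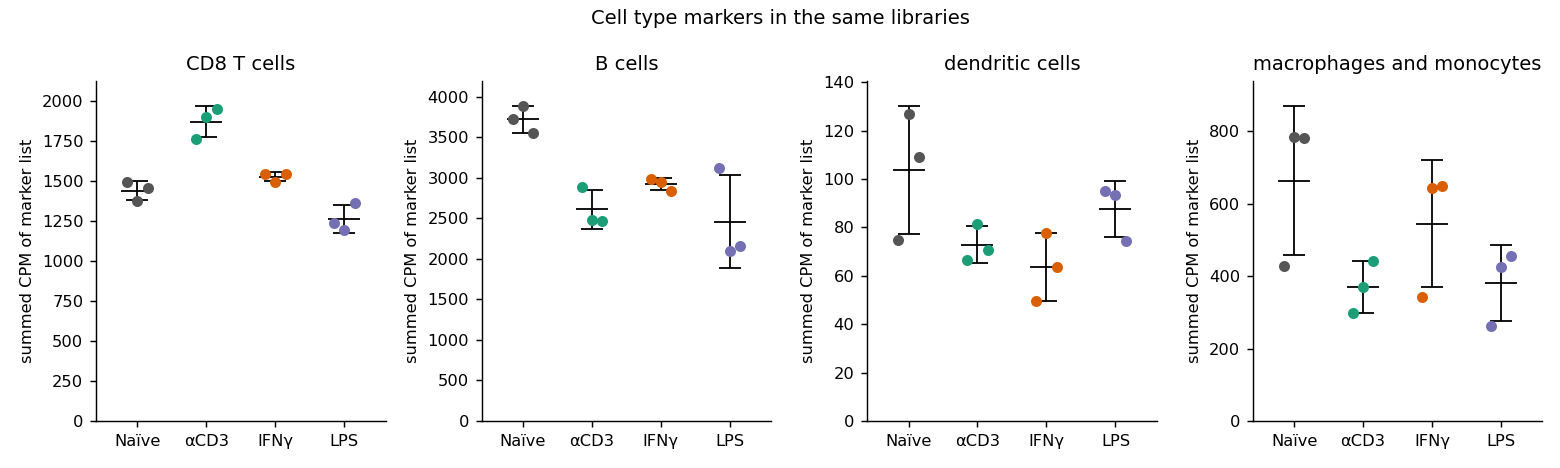
Summed CPM (vertical axis) of the CD8 T cell, B cell, dendritic cell and macrophage and monocyte marker lists in the 12 libraries, by group, where points are libraries and bars the mean and SD of 3. All 9 treated libraries held a lower B cell sum than the 3 Naïve libraries, while the CD8 T cell sums of αCD3 lay above those of Naïve.

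In Naïve cells Cd74, H2-Aa and H2-Ab1 were among the 50 most abundant mRNAs by counts, and most members were called lower after each stimulus. The 9 genes together made up 0.958% to 1.06% of the counts of a Naïve library, 0.594% to 0.705% in αCD3, 0.688% to 0.729% in IFNγ and 0.554% to 0.616% in LPS. Cd74 was the 8th or 9th most abundant gene of each Naïve library by counts and ranked between 10 and 17 in the treated libraries. Per kb of the longest coding transcript, the order of mean levels in Naïve was Cd74 (3827 CPM per kb), H2-Aa (1578), H2-Ab1 (1187), H2-Ob (96.8), H2-DMb1 (73.2), H2-Oa (50.1), Ciita (27.8), H2-Eb1 (23.8) and H2-DMa (22). The 7 H2 genes lie on chromosome 17 between 34092340 and 34316674 (GRCm38, GENCODE M21), and the counts are of their transcripts. Neighbours in this order overlapped between libraries for H2-Eb1 with Ciita and with H2-DMa, and the transcript set behind the estimated counts is not given in the sources used here.

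After IFNγ, 1 member was called higher than in Naïve (H2-Oa) and 5 were called lower (Cd74, H2-Aa, H2-Ab1, H2-Eb1 and H2-DMb1), where called means a Benjamini-Hochberg adjusted p under 0.05 in edgeR's quasi-likelihood test over all genes. Of all tested genes, 8.17% were called higher and 4.27% lower in this comparison. After LPS, 8 members were called lower (all but H2-DMa) and 0 higher, against 22.3% and 26.9% of all genes. After αCD3, 8 members were called lower (all but H2-Ob) and 0 higher, against 15.7% and 22.9% of all genes. The median log2 fold change of the 9 members against Naïve was -0.35 in IFNγ, -0.78 in LPS and -0.57 in αCD3, and that of all tested genes was -0.02, -0.01 and -0.02. The 3 comparisons share the Naïve libraries. Counted by libraries that did not overlap in CPM, 1 member lay above Naïve and 6 below it in IFNγ, against 16.2% and 15.4% of all genes, 8 lay below it in LPS and 0 above, against 27.4% and 30.7%, and 9 lay below it in αCD3 and 0 above, against 23.8% and 28.6%. No member had a value above 0 after LPS or αCD3, so 0 were higher there at an unadjusted p under 0.05 and with DESeq2 as well. With the replicate number as a block in the model, 1 member was called higher and 7 lower after IFNγ (Ciita and H2-Ob were added), against 13.5% and 11.4% of all genes, and 9 were called lower after LPS and after αCD3, against 28.4% and 24.2%. Without replicate 1 of every group, which was tried after the data had been seen, 1 member was called higher and 7 lower after IFNγ (H2-Oa, and all others but H2-DMa), against 11.8% and 11.5% of all genes, and 8 were called lower after LPS and after αCD3, against 25.9% and 22.1%, with H2-Ob in place of H2-DMa in αCD3.

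**Figure D2:**
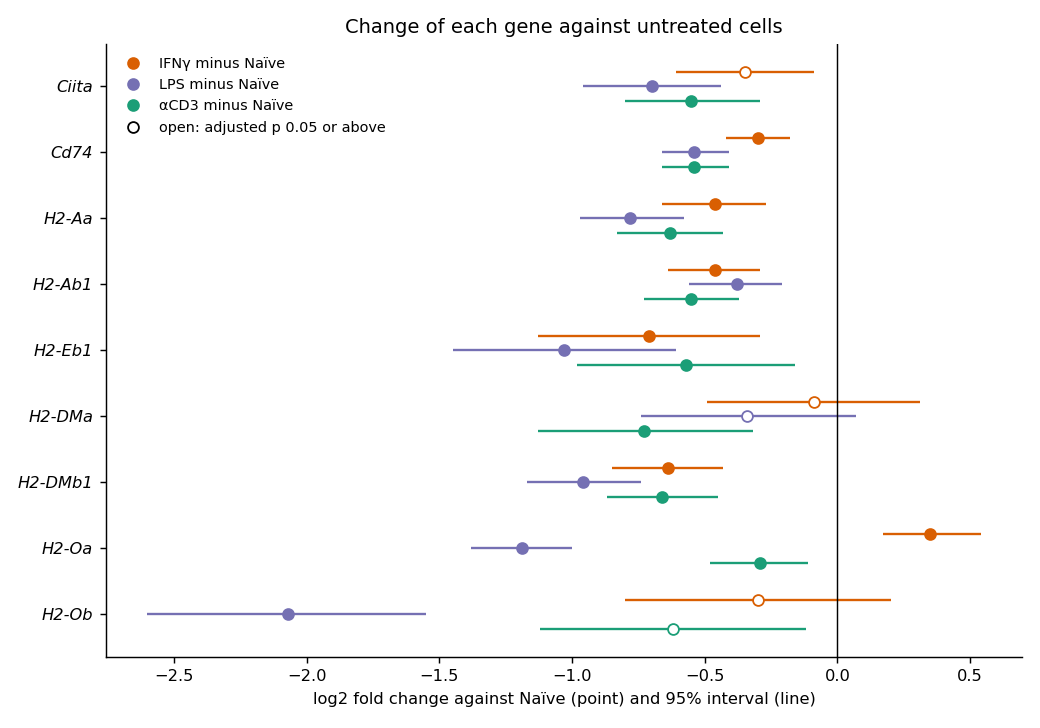
Log2 fold change against Naïve (horizontal axis) of each member for IFNγ, LPS and αCD3, with 95% intervals as lines and filled points for an adjusted p under 0.05. H2-Oa is the member above 0 after IFNγ (0.35 on the log2 scale, a call not kept with library size alone as the scaling), and H2-Ob after LPS lies furthest below 0 (-2.07).

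Ciita was not raised by IFNγ at 6 h. Its level was 173, 168 and 159 CPM in Naïve replicates 1 to 3, 139, 128 and 126 CPM in IFNγ, 123, 107 and 112 CPM in αCD3 and 124, 85.4 and 98.4 CPM in LPS. All 9 treated libraries lay below the 3 Naïve libraries. The log2 fold change against Naïve was -0.70 ± 0.12 (SE) in LPS (adjusted p = 0.000649) and -0.55 ± 0.12 in αCD3 (adjusted p = 0.00396). In IFNγ it was -0.35 ± 0.12, with an interval of -0.61 to -0.09 and an adjusted p of 0.0783, and with the replicate block the adjusted p was 0.0079. That difference was also past the threshold with DESeq2 (adjusted p = 0.0323), with library size alone (0.0289) and with only the 2 groups in the fit (0.0216). It was past it without LPS replicate 1 (0.0164) and without LPS replicate 2 (0.0396), but not without any other single library (up to 0.213). Ciita lies on the plus strand of chromosome 16 (10480059 to 10528418, GRCm38).

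**Figure D3:**
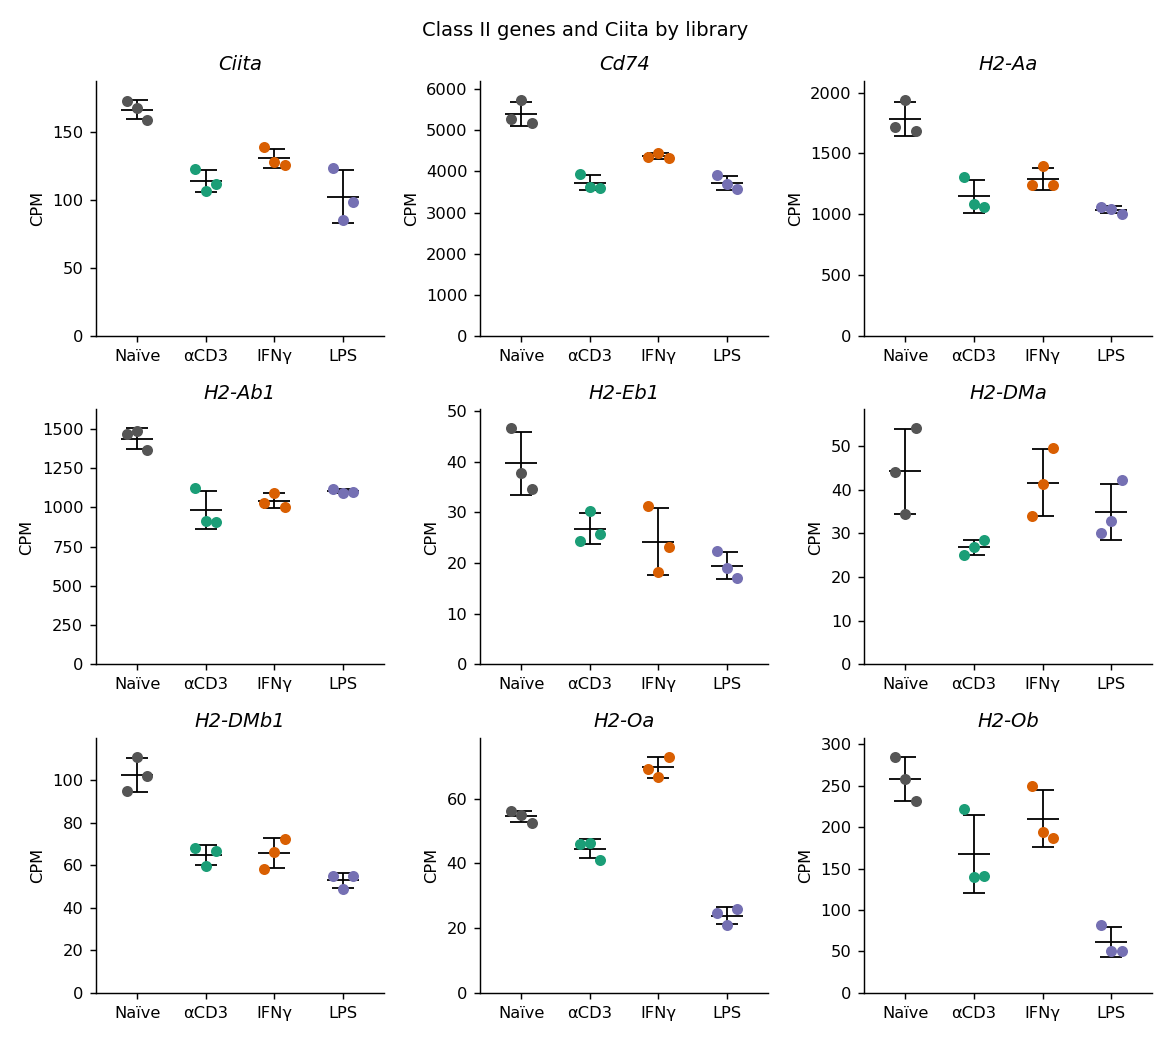
CPM (vertical axis, from 0) of the 9 genes in the 12 libraries by group, where points are libraries and bars the mean and SD of 3. In 7 of the 9 panels no IFNγ library overlaps a Naïve library, above it for H2-Oa (16.2% of all genes lay above) and below it for the other 6 of those genes (15.4% lay below).

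Cd74, the invariant chain that escorts class II chains to endosomes, was the most abundant member. It was measured at 5272, 5738 and 5178 CPM in Naïve, 4348, 4457 and 4320 in IFNγ, 3930, 3631 and 3606 in αCD3 and 3904, 3695 and 3572 in LPS. No treated library reached the lowest Naïve value, the IFNγ libraries lay above those of αCD3 and LPS, and αCD3 and LPS overlapped. The log2 fold change against Naïve was -0.30 ± 0.06 in IFNγ (adjusted p = 0.0053), -0.54 ± 0.06 in αCD3 (4.77e-05) and -0.54 ± 0.06 in LPS (2.67e-05). Each of these 3 calls was kept in all 12 fits that left out a library. The spread between libraries was small, at an SD of 1.65% to 5.56% of the group mean.

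H2-Aa encodes the alpha chain of I-A, the class II molecule of C57BL/6 mice. Its level was 1714, 1940 and 1685 CPM in Naïve, 1243, 1394 and 1237 in IFNγ, 1306, 1085 and 1058 in αCD3 and 1063, 1045 and 1006 in LPS. Every treated library lay below every Naïve library, and LPS lay below IFNγ. H2-Aa was at a log2 fold change of -0.46 ± 0.09 in IFNγ (adjusted p = 0.00686), -0.63 ± 0.09 in αCD3 (0.000333) and -0.78 ± 0.09 in LPS (5.24e-05).

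H2-Ab1 encodes the beta chain that pairs with it. It was measured at 1465, 1486 and 1363 CPM in Naïve, 1029, 1095 and 1006 in IFNγ, 1123, 916 and 908 in αCD3 and 1117, 1092 and 1101 in LPS. Here too all treated libraries lay below Naïve, but the 3 treated groups overlapped. The log2 fold change was -0.46 ± 0.08 in IFNγ (adjusted p = 0.00393), -0.55 ± 0.08 in αCD3 (0.000406) and -0.38 ± 0.08 in LPS (0.00263).

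The ratio of the I-A chains overlapped that of Naïve in IFNγ and lay below it in LPS. Per kb, the H2-Aa level was 1.26, 1.40 and 1.33 times that of H2-Ab1 in Naïve, 1.3, 1.37 and 1.32 times in IFNγ and 1.25, 1.27 and 1.25 times in αCD3. In LPS it was 1.02, 1.03 and 0.981 times, below every other library. The ratios between genes are given by their values, and no test was run on them. The ratio of Cd74 to H2-Aa per kb was 2.37 to 2.46 in Naïve, 2.56 to 2.8 in IFNγ, 2.41 to 2.73 in αCD3 and 2.83 to 2.94 in LPS. LPS lay above all other libraries, IFNγ above Naïve, and αCD3 overlapped both.

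H2-Eb1, the beta chain of I-E, was far lower than the I-A genes. I-E lacks its alpha chain in C57BL/6 mice because the promoter of that gene is deleted, and the gene, listed as H2-Ea-ps, was at 0 in 10 of 12 libraries, with at most 1.2 estimated counts in the other two. H2-Eb1 was measured at 46.6, 37.8 and 34.7 CPM in Naïve, 31.3, 18.2 and 23.2 in IFNγ, 24.4, 30.3 and 25.8 in αCD3 and 22.4, 19.0 and 17.1 in LPS. All treated libraries lay below Naïve. The IFNγ libraries overlapped those of αCD3 and of LPS, and αCD3 lay above LPS. Against Naïve it was at -1.03 ± 0.19 on the log2 scale in LPS (adjusted p = 0.0013), -0.71 ± 0.19 in IFNγ (0.0322) and -0.57 ± 0.19 in αCD3 (0.0321). The IFNγ call was lost without Naïve replicate 1 or 2 or without IFNγ replicate 2 or 3 (adjusted p = 0.0727 to 0.117), and the αCD3 call without Naïve replicate 1 or 2 or αCD3 replicate 1 or 3 (0.0574 to 0.12). With only the 2 groups in the fit the IFNγ value had an adjusted p of 0.0785. H2-Eb2, a neighbouring beta-like gene, fell by 1.46 ± 0.24 on the log2 scale in LPS (adjusted p = 0.000754) and by 0.75 ± 0.24 in αCD3 (0.0286), and was at -0.61 ± 0.24 in IFNγ (0.13), where it was called lower with the block.

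H2-DMa and H2-DMb1 form H2-DM, the exchange factor that removes the invariant chain remnant. H2-DMb1 was measured at 95, 111 and 102 CPM in Naïve, 58.4, 66.3 and 72.6 in IFNγ, 68.3, 59.5 and 66.8 in αCD3 and 55.0, 49.0 and 54.9 in LPS. No treated library overlapped Naïve. The log2 fold change was -0.64 ± 0.10 in IFNγ (adjusted p = 0.00181), -0.66 ± 0.09 in αCD3 (0.000356) and -0.96 ± 0.10 in LPS (2.25e-05). Only 68.6% of the 31-base words of the H2-DMb1 transcripts were found in no other gene, the rest being shared mainly with the near-copy H2-DMb2, so the split of reads between the pair is uncertain. H2-DMb2 fell in the same 3 comparisons, by 0.61 ± 0.07, 0.58 ± 0.07 and 1.19 ± 0.08 on the log2 scale in IFNγ, αCD3 and LPS (adjusted p = 0.000747, 0.000193 and 2.13e-06). The other members had 98.6% to 100% of such words to themselves.

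H2-DMa, the partner of H2-DMb1, was called lower after αCD3 alone. Its level was 44.1, 34.4 and 54.0 CPM in Naïve, 34.0, 41.3 and 49.5 in IFNγ, 25.0, 26.9 and 28.5 in αCD3 and 30.0, 32.7 and 42.1 in LPS. Naïve overlapped IFNγ and LPS and lay above αCD3. The log2 fold change was -0.09 ± 0.18 in IFNγ, with an interval of -0.49 to 0.31 (adjusted p = 0.811). In αCD3 it was -0.73 ± 0.18 (adjusted p = 0.0104), a call lost without replicate 1 of every group (0.0559). In LPS it was -0.34 ± 0.18 (adjusted p = 0.151), which was past the threshold with the replicate block (0.024), with library size alone (0.0214) and without Naïve replicate 2 (0.0489), and further from it without Naïve replicate 3 (-0.17, adjusted p = 0.486), without LPS replicate 1 (-0.24, 0.35) and without replicate 1 of every group (-0.24, 0.414). This was the member whose Naïve libraries spread the most, with an SD of 22.2% of the mean.

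H2-Oa and H2-Ob form H2-DO, the modulator of H2-DM, and they had the 2 lowest log2 fold changes of the members after LPS. After IFNγ H2-Oa was the member above 0, while H2-Ob was at -0.30, beside a member median of -0.35. H2-Oa was measured at 56.1, 54.9 and 52.6 CPM in Naïve, 69.3, 66.7 and 72.9 in IFNγ, 46.0, 46.3 and 41.1 in αCD3 and 24.6, 20.9 and 26 in LPS. The 4 groups did not overlap anywhere, in the order IFNγ, Naïve, αCD3, LPS. In IFNγ the log2 fold change was 0.35 ± 0.08, a level 1.28 times that of Naïve (adjusted p = 0.0195). With library size alone as the scaling the value was 0.21 (adjusted p = 0.119), a setting that moved the median of all genes in this comparison to -0.16, and the call was also lost without Naïve replicate 2 or 3 or IFNγ replicate 3 (0.0627 to 0.0811).

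After LPS, H2-Oa stood at 43.7% of its Naïve level, a log2 fold change of -1.19 ± 0.09 (adjusted p = 3.43e-06), and this call was kept in all 12 fits that left out a library. After αCD3 it was at -0.29 ± 0.08 (adjusted p = 0.0179), and that call was lost without Naïve replicate 1 (0.0554) or αCD3 replicate 3 (0.0759). H2-Oa was the member with the widest span between IFNγ and LPS relative to its error, at 1.55 ± 0.09 on the log2 scale (adjusted p = 1.27e-06), or 2.92 times the level.

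H2-Ob, the beta chain of H2-DO, was measured at 285, 258 and 232 CPM in Naïve, 250, 194 and 187 in IFNγ, 222, 140 and 141 in αCD3 and 82.4, 51.0 and 51.0 in LPS. The LPS libraries lay far below all others, IFNγ overlapped Naïve, and replicate 1 was the highest of its group in all 4 groups. The LPS level was 4.21 times lower than Naïve, a log2 fold change of -2.07 ± 0.24 (adjusted p = 5.99e-05), the largest change of any member in the comparisons with Naïve. In αCD3 the value was -0.62 ± 0.23 (adjusted p = 0.0501). The adjusted p was 0.000252 with the replicate block, 0.0127 with DESeq2, 0.0372 with library size alone and 0.0498 with only the 2 groups in the fit. It was 0.0222, 0.0465 and 0.00859 without replicate 1 of LPS, of IFNγ and of αCD3, and up to 0.17 without another library. In IFNγ the log2 fold change was -0.30 ± 0.23 (adjusted p = 0.46), with 0.0341 under the block and 0.00183 without replicate 1 of every group.

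The ratio of H2-DO to H2-DM mRNA was lowest in LPS. Per kb, the H2-DO pair summed to 1.77, 1.53 and 1.35 times the H2-DM pair in Naïve, to 2.69, 1.97 and 1.79 times in IFNγ and to 2.05, 1.70 and 1.47 times in αCD3. In LPS the sums were 0.988, 0.748 and 0.716 times those of H2-DM. These lay below all other libraries, and the lowest IFNγ library (1.79) stood next to the highest Naïve library (1.77). With H2-DMb2 counted in, since its reads are hard to split from those of H2-DMb1, the ratio was 0.379 to 0.464 in Naïve, 0.557 to 0.685 in IFNγ, 0.379 to 0.524 in αCD3 and 0.247 to 0.296 in LPS. On that scale too IFNγ lay above Naïve and LPS below all other libraries. Within H2-DO, the level of H2-Ob was 2.07, 1.92 and 1.80 times that of H2-Oa in Naïve, and it was 1.47, 1.18 and 1.04 times in IFNγ, 1.96, 1.23 and 1.4 times in αCD3 and 1.36, 0.995 and 0.800 times in LPS. IFNγ and LPS lay below Naïve, and 1 αCD3 library lay within its range.

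**Figure D4:**
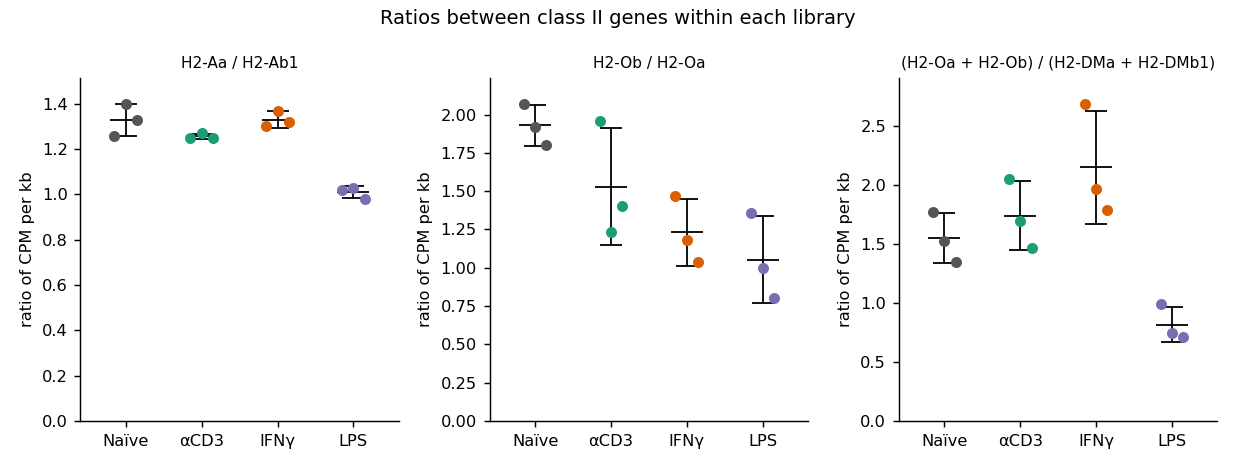
Ratios of CPM per kb within each library (vertical axes, from 0) for H2-Aa to H2-Ab1, H2-Ob to H2-Oa, and the H2-DO pair to the H2-DM pair, by group, where points are libraries and bars the mean and SD of 3. The LPS libraries lie lowest for H2-Aa to H2-Ab1 (0.981 to 1.03) and for H2-DO to H2-DM (0.716 to 0.988).

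Among the stimuli, the largest differences were those of the H2-DO genes between LPS and each of the others. IFNγ against LPS had 6 members called higher (Ciita, Cd74, H2-Aa, H2-DMb1, H2-Oa and H2-Ob) and 0 lower, against 18% and 22.4% of all genes. The largest difference was that of H2-Ob, at 1.78 ± 0.23 on the log2 scale (adjusted p = 0.000167), and the smallest of the called ones was that of Cd74, at 0.23 ± 0.06 (0.00623). The Ciita difference of 0.35 ± 0.12 (adjusted p = 0.0332) was lost without any 1 of the 3 IFNγ libraries or without LPS replicate 2 or 3 (0.0537 to 0.121), and with only the 2 groups in the fit (0.0832). That of H2-Aa, 0.32 ± 0.09 (0.0155), was lost without IFNγ replicate 2 or LPS replicate 3 (0.057 to 0.063), and that of H2-DMb1, 0.31 ± 0.10 (0.0238), without IFNγ replicate 2 or 3 or LPS replicate 2 (0.0598 to 0.0941). Without IFNγ replicate 2 the count was 3, where 1813 of all genes were called higher, against 2182 with all libraries. With the replicate block 6 members were called higher, against 25.8% of all genes, and without replicate 1 of every group 6 as well, against 22.3%. Of the markers, 7 of 12 for macrophages and monocytes were called higher and 2 lower in this comparison, 5 of 7 for CD8 T cells higher and 0 lower, 4 of 12 for B cells higher and 4 lower, and 1 of 8 for dendritic cells higher and 2 lower, and their part in the member values was not tested. With all 12 libraries and no block, in none of the 3 comparisons among the stimuli was a member lower at an unadjusted p under 0.05 in edgeR or called lower by DESeq2.

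IFNγ against αCD3 had 3 members called higher (Cd74, H2-DMa and H2-Oa) and 0 lower, against 15.8% and 21.4% of all genes. The differences were 0.23 ± 0.06 for Cd74 (adjusted p = 0.00684), 0.64 ± 0.19 for H2-DMa (0.0203) and 0.65 ± 0.08 for H2-Oa (0.000175). That of H2-DMa was lost without αCD3 replicate 1 or 2 or IFNγ replicate 3 (0.0534 to 0.0822). H2-Aa and H2-Ab1 were past the threshold without αCD3 replicate 1 (0.0219 and 0.0276). In the same comparison 4 B cell markers were called higher and 1 lower, 3 macrophage and monocyte markers higher and 0 lower, 1 CD8 T cell marker higher and 3 lower, and 0 dendritic cell markers higher and 1 lower. With the block 4 were called higher, H2-Ob being added (0.0115), against 23.7% of all genes. Without replicate 1 of every group the H2-DMa call was lost (0.06), 5 were called higher (Cd74, H2-Aa, H2-Ab1, H2-Oa and H2-Ob) and 1 lower, H2-Eb1 at -0.46 (adjusted p = 0.0205), against 20.4% and 25% of all genes.

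αCD3 against LPS had 2 members called higher, H2-Oa at 0.90 ± 0.09 (adjusted p = 6.85e-05) and H2-Ob at 1.45 ± 0.23 (0.00185), and 0 lower, against 9.64% and 9.76% of all genes. Beside these, 4 B cell markers were called higher and 3 lower, 5 macrophage and monocyte markers higher and 2 lower, 5 CD8 T cell markers higher and 1 lower, and 1 dendritic cell marker higher and 2 lower. With the block 3 were called higher, H2-DMb1 being added (0.0267), and H2-DMa was called lower (0.0317), against 16.5% and 18.2% of all genes. H2-DMb1 itself was at 0.29 ± 0.10 (adjusted p = 0.0542). It passed the threshold with DESeq2 (0.0319), with library size alone (0.017) and without αCD3 replicate 2 or IFNγ replicate 1 or 3 (0.0324 to 0.049). With only the 2 groups in the fit it did not (0.0672). Without replicate 1 of every group 5 were called higher (Ciita, H2-Eb1 and H2-DMb1 being added) and 1 lower, H2-Ab1 at -0.26 (adjusted p = 0.0101), against 14.3% and 15.1% of all genes. Cd74 differed by less than 0.01 on the log2 scale between αCD3 and LPS, with an interval of -0.12 to 0.12. Ciita was at 0.15 ± 0.12 (adjusted p = 0.394), which was 0.0341 without LPS replicate 1, the library with the highest Ciita and B cell marker levels of its group. H2-Ab1 was past the threshold without αCD3 replicate 1 (0.013), in the direction of LPS.

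Of 8 genes that carry the IFNγ signal to Ciita, 3 rose after IFNγ and 1 fell. This and the lists that follow are set beside the share of all genes called higher and lower, which was 8.17% and 4.27% after IFNγ, 26.9% and 22.3% after LPS and 22.9% and 15.7% after αCD3. Of the 12122 tested genes, library size alone called 715 higher and 1564 lower after IFNγ. It called 2140 and 4380 after LPS, and 2095 and 2667 after αCD3. DESeq2 called 1153 and 658, 3220 and 2850, and 2792 and 2134 genes in the same order. Irf1, a transcription factor that acts on the IFNγ-responsive promoter of Ciita, rose from 239 to 310 CPM in Naïve to 1102 to 1292 CPM, a log2 fold change of 2.11 ± 0.32 (adjusted p = 0.00226). Irf2, a related factor, rose by 1.05 ± 0.09 (0.000274) and Usf1, which binds the same promoter, by 0.64 ± 0.06 (0.000321). Ifngr2, a chain of the IFNγ receptor, fell by 0.64 ± 0.11 on the log2 scale (0.00423). After LPS 1 gene of this list rose (Irf1, 1.57 ± 0.32, adjusted p = 0.00227) and 2 of 8 fell (Ifngr1 and Irf2), counts near or below the shares of all genes. Irf1 was at 389, 1039 and 998 CPM in LPS replicates 1 to 3, so replicate 1 lay nearer to the Naïve range than the others. After αCD3 3 fell, Ifngr1 by 1.37 ± 0.09 on the log2 scale (5.76e-06). The Irf2 call after LPS was lost without LPS replicate 1 (0.0595) and without replicate 1 of every group (0.155). With the replicate block 1 rose and 4 fell after αCD3, where the block called 28.1% of all genes higher and 24.2% lower.

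Of the 7 genes of the promoter complex, Rfx5, the DNA-binding subunit of RFX, rose in all 3 comparisons. It was measured at 61.7 to 72.2 CPM in Naïve, 91.7 to 95.8 in IFNγ, 89.6 to 101 in LPS and 81.7 to 95.1 in αCD3. Rfx5 was at a log2 fold change of 0.47 ± 0.08 in IFNγ (adjusted p = 0.00396), 0.46 ± 0.08 in LPS (0.000938) and 0.36 ± 0.08 in αCD3 (0.00567). In IFNγ it was the 1 gene of the list that was called. In LPS the NF-Y subunits Nfya, Nfyb and Nfyc rose as well, by 0.28 ± 0.09, 0.20 ± 0.08 and 0.31 ± 0.07 (adjusted p = 0.0205, 0.0486 and 0.00386), so that 4 of 7 rose. The 3 NF-Y calls were lost with library size alone as the scaling, at 0.07, -0.01 and 0.09 (adjusted p = 0.589, 0.941 and 0.324), where 1 gene was called higher and 1 lower. DESeq2 called 3 higher, and without LPS replicate 1 the count was 2, Nfya and Nfyb being lost (0.0668 and 0.117). In αCD3 Rfx5 and Nfyb rose and Creb1 fell, with Nfyb lost under library size alone (0.0783), and 3 rose and 2 fell with the block.

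Of 6 genes of invariant chain and peptide processing, 2 rose after IFNγ. Ctss, the protease that trims the invariant chain, rose by 0.78 ± 0.21 (adjusted p = 0.0357) and Sppl2a, which cleaves the remaining membrane stub, by 0.97 ± 0.20 (0.0118). Lgmn, a protease, was at -0.79 ± 0.24 (0.0572), and it was called lower with library size alone (0.0203) and with the block (0.00205). With the replicate block 3 rose and 2 fell, and with DESeq2 and with library size alone 2 rose and 1 fell. After LPS Sppl2a rose by 0.71 ± 0.20 (0.0145) and the proteases Ctsh and Lgmn fell, by 1.23 ± 0.13 (3.43e-05) and 0.89 ± 0.24 (0.0108). After αCD3 the same 2 proteases fell, by 0.49 ± 0.13 (0.0126) and 1.06 ± 0.24 (0.00597). With the block, which called 31% of all genes higher and 28.4% lower after LPS, 2 rose and 4 fell after LPS, and 1 rose and 4 fell after αCD3. With library size alone and with DESeq2 1 rose and 4 fell after LPS, and 0 rose and 3 fell after αCD3. Of all genes these 2 settings called 4380 and 2850 lower after LPS, and 2667 and 2134 lower after αCD3. Among 3 genes of class II surface turnover, Cd83, which stabilises class II at the surface, fell by 0.92 ± 0.09 in IFNγ (0.000321) and by 0.42 ± 0.09 in αCD3 (0.00391) and rose by 0.25 ± 0.09 in LPS (0.0375). The Cd83 call in LPS was lost with library size alone (0.04, adjusted p = 0.736), without LPS replicate 1 (0.15, 0.134) and without replicate 1 of every group (0.13, 0.0958). March1, the ubiquitin ligase that sends class II to degradation, fell by 1.26 ± 0.17 in LPS (0.000168) and was at -0.06 ± 0.16 in IFNγ (0.875). In αCD3 March1 was at -0.44 ± 0.16 (0.0527), with no overlap between its libraries and those of Naïve, and it was called lower with library size alone (0.0241), without LPS replicate 1 (0.0134) and without replicate 1 of every group (0.000498). DESeq2 called 2 of the 3 turnover genes lower in αCD3. Ctss, Lgmn and Sppl2a are also expressed in myeloid cells, whose marker sums are given above, and their part in these values was not tested.

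Since B cells are a main source of class II mRNA in spleen, the marker values belong beside these results. Of 12 B cell markers tested, 3 were called lower after IFNγ, 1 higher and 5 lower after LPS, and 7 lower after αCD3. Their median log2 fold changes were -0.30, -0.42 and -0.53. Without LPS replicate 1 the LPS median was -0.64. With the replicate block 4 were called lower after IFNγ, 3 higher and 5 lower after LPS and 9 lower after αCD3. With library size alone 6, 7 and 8 were called lower and 0 higher. That setting called 1564, 4380 and 2667 of the 12122 tested genes lower, so part of these counts goes with all genes. Without replicate 1 of every group, 7 B cell markers were called lower after IFNγ, 2 higher and 7 lower after LPS, and 10 lower after αCD3. Within the list the markers did not move as one: after LPS Cd79a was at -1.62 ± 0.16 (adjusted p = 1.98e-05) while Pax5 was at 0.39 ± 0.12 (0.0228; 0.18 and 0.261 with library size alone), and after IFNγ Fcer2a was at -2.15 ± 0.39 (0.00607) while Cd79a was at -0.07 ± 0.15 (0.838). Of 12 macrophage and monocyte markers, 1 was called lower after IFNγ, 2 higher and 8 lower after LPS, and 4 lower after αCD3. With the block these were 2 higher and 4 lower, 2 and 10, and 9 lower, and with library size alone 2, 10 and 7 lower. The last 3 counts stand beside the 1564, 4380 and 2667 genes that library size alone called lower. Of 8 dendritic cell markers tested, 2 were lower after IFNγ, 2 after αCD3, and 1 higher and 1 lower after LPS, and with the block 3 lower, 4 lower, and 1 higher and 4 lower. Of 7 CD8 T cell markers, 4 were called lower after LPS, and 3 higher and 1 lower after αCD3, and after IFNγ their log2 fold changes ran from -0.10 to 0.21, with none called by edgeR or DESeq2, 1 at an unadjusted p under 0.05 and 1 called higher with the block.

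Divided by the B cell marker sum of the same library, the members stood at different shares of their Naïve mean. Ciita then stood at 99.7% in IFNγ, 97.5% in αCD3 and 88.6%, 90.7% and 102% in the LPS libraries. Cd74 stood at 103% and 98.6%, and at 86.3%, 121% and 114% in LPS, and H2-Aa at 92.4% and 92.1%, and at 71.3%, 104% and 97.6% in LPS. LPS replicate 1, the library with the highest B cell marker sum of its group, was the lowest of the 3 for each of these genes. H2-Eb1 stood at 57.8% to 98.5% in IFNγ, 79.3% to 115% in αCD3 and 67.4% to 84.8% in LPS, against 91.1% to 117% in Naïve, so that LPS alone did not overlap Naïve. H2-DMb1 stood at 70.8% to 92.5%, 85.7% to 97.8% and 63.8% to 92.2% in the same order, against 92.4% to 104% in Naïve, which IFNγ and αCD3 overlapped and LPS all but reached. H2-DMa stood at 95.3% to 145%, 72.5% to 96.3% and 80.4% to 163%, all overlapping the Naïve range of 74.0% to 127%. H2-Oa was at 159%, 154% and 175% in the IFNγ libraries and at 53.8%, 67.8% and 82.3% in the LPS libraries, and in αCD3, where its CPM was called lower, at 109%, 127% and 113%. The Naïve range was 96.4% to 103%, so that IFNγ and αCD3 lay above it and LPS below it. H2-Ob was at 34.1% to 38.0% in LPS, whereas in IFNγ it was at 94.5% to 121% and in αCD3 at 81.5% to 111%, both overlapping the Naïve range of 93.8% to 110%. H2-Ab1 was at 92.3% in IFNγ and 97.2% in αCD3 on average, at 92.7% in LPS replicate 1 and at 135% and 132% in the other two LPS libraries. This division was added after the values had been seen, it describes the libraries without a test, and how far the cell mixture sets each level was not tested.

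**Figure D5:**
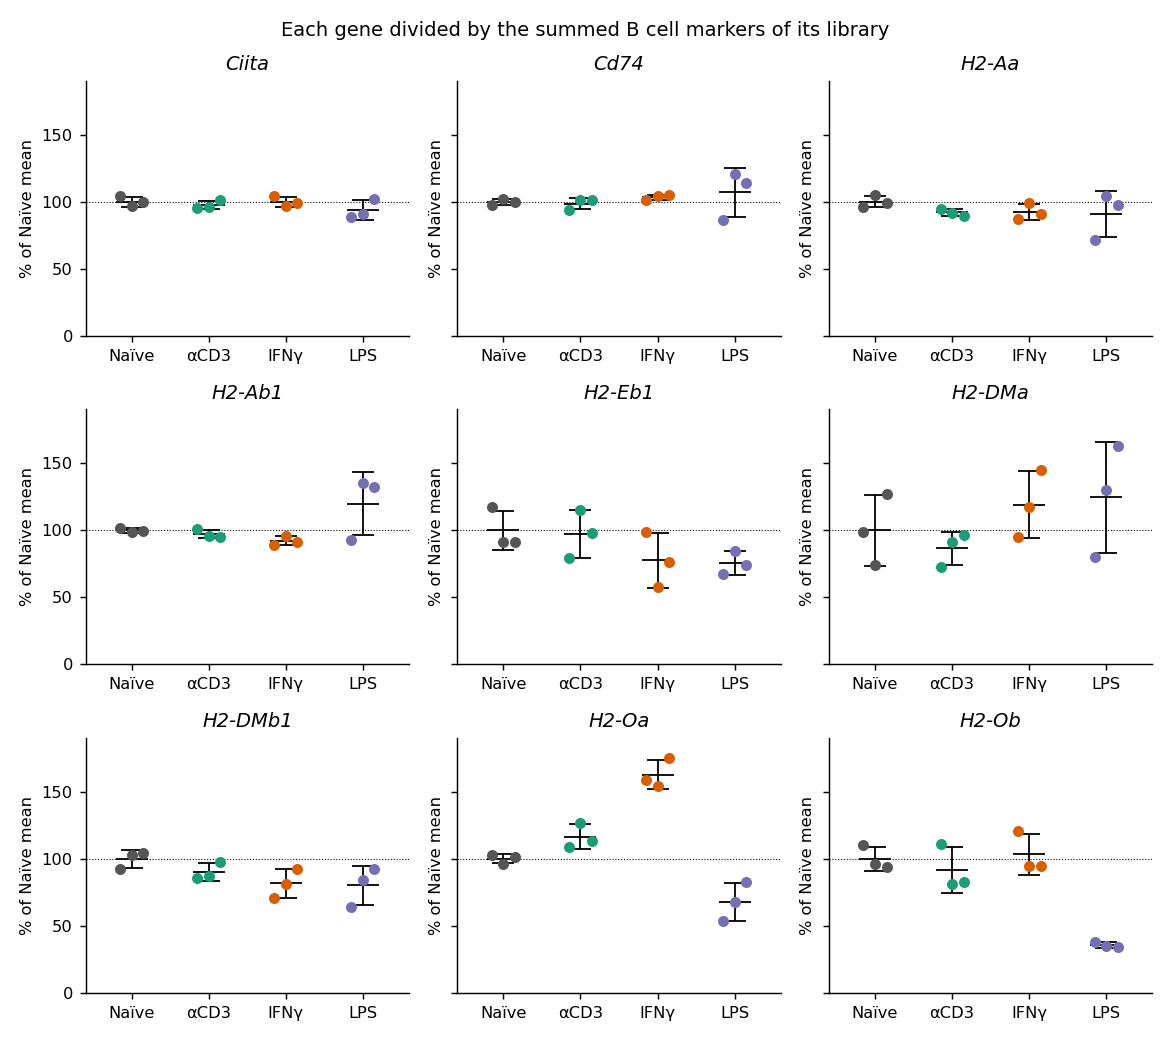
CPM of each gene divided by the summed CPM of 12 B cell markers in the same library, as percent of the Naïve mean (vertical axis), by group, where points are libraries, bars the mean and SD of 3 and the dotted line 100%. H2-Oa lies at 154% to 175% in IFNγ and H2-Ob at 34.1% to 38.0% in LPS, while Ciita stays between 93.7% and 100% on average.

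Across the 12 libraries, which share their groups and depths, the log2 CPM of Ciita had a Pearson correlation of 0.911 with Cd74, 0.894 with H2-Aa, 0.868 with H2-DMb1 and 0.849 with H2-Ob, and of 0.391 with H2-DMa. Cd74 and H2-Aa had a correlation of 0.971. Outside the members, the genes most like Ciita among 9439 with a mean of at least 5 CPM were Paxx (0.988), Rgl2 (0.981), Slc36a1 (0.977), Wdr90 (0.977) and Wdr13 (0.976). Those most like the mean of Cd74, H2-Aa, H2-Ab1 and H2-Eb1 were Atp6v0a1 (0.966), Pag1 (0.957), Homer3 (0.954), Pbx2 (0.95) and Cacnb1 (0.949). Paxx, for example, was at 22.4 ± 2.19 CPM (SD, n = 3) in Naïve, 16.4 ± 1.83 in IFNγ, 12.9 ± 2.27 in αCD3 and 10.2 ± 2.94 in LPS, the same order of group means as Ciita.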

How the data were processed

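The table that the authors deposited holds estimated counts by gene symbol for each library, made from mRNA reads with Kallisto and not scaled for depth. The submitters' processing notes also name mm10 and DESeq2 1.24.0, while the Kallisto version and transcript annotation are not given in the sources used here. The study's methods give TMM scaling and a single DESeq2 call. Here estimated counts were rounded and all 12 libraries were fitted with the group as the only term (edgeR 4.0.16 in R 4.3.3, TMM factors, filterByExpr, robust quasi-likelihood F-test). P-values were adjusted over the 12122 tested genes by the Benjamini-Hochberg method, and intervals are 95%. CPM were computed from the deposited estimated counts with TMM-scaled library sizes. Columns of samples outside the labels numbered 0. The script was tested on simulated data.

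All 9 members were named, beside listed pathway genes called in a comparison with Naïve and the 5 genes most like Ciita and like the chain mean. Values of some list genes that were not called, the B cell marker examples among them, were added after they were seen. The members and lists were chosen with earlier results of these data known. Coordinates are from GENCODE M21 (GRCm38), and promoters from RefSeq (GRCm38.p6).

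Same-numbered libraries deviated together from their group means in all 6 comparisons (correlation 0.117 to 0.401 for each of 3 pairs). The fit with the group alone leaves this pairing out, so its SE, intervals and p-values ignore it. The replicate block takes it in. With the block 8, 9 and 9 members were called in IFNγ, LPS and αCD3 against Naïve, and without it 6, 8 and 8. The labels do not say what a number stands for. Alternatives were library size alone, no count filter, the replicate block, DESeq2 1.42.0, the 2 compared groups alone, each library left out and, added after the data were seen, no replicate 1.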

Additional observations from a re-analysis of the deposited data

How the results depend on the processing

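The number of members called was recomputed under 18 alternatives. Leaving out 1 library gave 4 to 7 for IFNγ against Naïve, 8 to 9 for LPS against Naïve, 6 to 9 for αCD3 against Naïve, 2 to 4 for IFNγ against αCD3, 3 to 6 for IFNγ against LPS (3 without IFNγ replicate 2) and 2 to 3 for αCD3 against LPS. The counts of all genes moved as well. Against Naïve they were 572 to 1068 higher and 215 to 583 lower for IFNγ. For LPS they were 2795 to 3306 and 1965 to 2869, and for αCD3 2087 to 2862 and 1043 to 2101. They were 1311 to 2049 and 2151 to 2658 for IFNγ against αCD3. For IFNγ and αCD3 against LPS they were 1561 to 2344 and 2369 to 2764, and 719 to 1296 and 710 to 1294. Beyond a factor of 1.5, the replicate block moved αCD3 against LPS from 2 to 4, and leaving out replicate 1 of every group moved it to 6 and IFNγ against αCD3 from 3 to 6. The cause was not tested. The block added the calls given above and changed no other call. With library size alone the median of all genes moved to -0.16, -0.22 and -0.13 for IFNγ, LPS and αCD3 against Naïve.

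Of 972 recomputed fold changes of members, 882 kept direction and side of the threshold, 40 passed it newly, 31 no longer passed and 19 changed sign, 0 of these among the 33 called values. Those that changed sign had values near 0 as reported. Cd74 in αCD3 against LPS was 0.001 with DESeq2, 0.098 with library size alone, 0.017 without the filter, 0.011 with 2 groups, 0.017 and 0.022 without αCD3 replicates 2 and 3, 0.01 without IFNγ replicate 1, 0.034 without LPS replicate 1, and 0, 0 and 0.001 without Naïve replicates 1 to 3, with -0.041 to 0.034 as the range over libraries left out. H2-DMa in IFNγ against Naïve was 0.027 without IFNγ replicate 1, 0.079 without Naïve replicate 3 and 0.009 without replicate 1 of every group (range over libraries left out -0.239 to 0.079). H2-DMb1 in IFNγ against αCD3 was -0.013 with library size alone, -0.004 without the filter, -0.039 without αCD3 replicate 2 and -0.058 without IFNγ replicate 3 (range -0.058 to 0.092). H2-Eb1 in that comparison was 0.029 without IFNγ replicate 2 (range -0.376 to 0.029). Precision was limited by 3 libraries a group. The part of depth, 10.2 M to 27.6 M counts, was not tested, and only 1 time point was measured.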
